A study of Drosophila melanogaster with 7 samples.

Results

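The JAK/STAT pathway genes are the 9 rows of the deposited gene table whose symbol is upd1, upd2, upd3, dome, et, hop, Stat92E, Socs36E or Ptp61F, out of 17208 genes in all. Each symbol was found. They were measured by RNA sequencing in wing imaginal discs, the larval epithelial sacs that give rise to the wings and the notum, of third-instar Drosophila melanogaster. There were 4 libraries of ds38k mutants, which carry the ds38k allele of dachsous (ds), an atypical cadherin gene, and 3 libraries of the wild type (WT), whose column names give the stock as w1118. The labels do not say whether the mutants were homozygous, what else their chromosomes carried, which sex was dissected or whether replicates were separate dissections, so the p-values measure how much these libraries vary, which may be technical variation.

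In the fly, JAK/STAT signalling starts when a secreted Unpaired cytokine binds the receptor Domeless at the cell surface. The receptor-bound kinase Hopscotch, the only Janus kinase of the fly, then phosphorylates the transcription factor Stat92E, which enters the nucleus and switches on targets that include its own inhibitor Socs36E. In the wing disc the pathway is known for its role in the growth and survival of the hinge, and Unpaired cytokines are known to be induced after wounding.

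The libraries held 25192573 to 31142008 counts in ds38k and 21438650 to 31718949 in WT. Transcripts of ds, which check the mutant label, had 161 to 229 CPM (counts scaled to library size with the TMM factors of edgeR) in ds38k and 1422 to 1701 CPM in WT. Its log2 fold change was -2.95, and -1.19 with the correction for transcript length described next (edgeR adjusted p = 9.3e-05). The disc markers nub, vg, ap, Dll, sd and wg were found in every library, with sums of 998 to 1372 CPM in ds38k and 1806 to 2443 CPM in WT. The genotypes also differed in composition: annotated ribosomal RNA genes took 11.4% to 15.2% of the counts in ds38k and 0.839% to 1.5% in WT, and log2 fold changes fell with transcript length, from a median of 1.097 in the shortest of 10 length classes of protein-coding genes to -1.60 in the longest. The values below are therefore given with and without a correction for transcript length. ds38k replicate 4 stood apart from the other mutant libraries. The chi-square per degree of freedom between it and each of them was 215 to 240, against 37.4 to 67.0 among replicates 1 to 3. In this library 6 Hsp70 heat shock genes summed to 13270 CPM, against 1.93 to 115 CPM in replicates 1 to 3 and 1.56 to 3.79 CPM in WT. Its sum of 5 fat body markers was 54.0 CPM, against 859 to 2897 CPM in replicates 1 to 3 and 11.7 to 22.4 CPM in WT. Results that turn on it are given without it as well.

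All 9 genes had enough counts to be tested, and 5 of them were lower in ds38k: upd1, dome, hop, Stat92E and Ptp61F (p under 0.05 in the quasi-likelihood test of edgeR, with Benjamini-Hochberg adjustment over 9294 genes). By edgeR 0 of the 9 were higher, also at an unadjusted p under 0.05. By DESeq2 0 were higher and 6 lower, beside 3328 and 3210 of 10931 genes. Among all genes tested by edgeR 65.0% were called, 30.8% lower and 34.2% higher. The median log2 fold change (ds38k over WT) of the 9 was -1.08, that of all tested genes 0.07. With the length correction, hop and Ptp61F were called lower and none was called higher by edgeR, where 19.1% and 27.6% of 9224 genes were called (46.7% in either direction); 1 rise, that of et, then had an unadjusted p under 0.05. The corrected median was -0.37, against 0.06 for all tested genes. Without ds38k replicate 4, 7 were lower and 1 was higher, beside 34.6% and 36.3% of 9214 genes (70.9% in either direction); with both changes 5 were lower and 1 higher, beside 25.3% and 30.0% of 9144 genes (55.3% in either direction). The CPM ranges of the genotypes did not overlap for 6 of the 9, a share close to the 66.4% of all tested genes. Of these 6, 5 were lower in ds38k, beside 2971 of the 6167 tested genes whose ranges did not overlap (32.0% of all tested genes). The other of the 6, et, was also the 1 gene called higher without replicate 4, and it was tested only through ds38k, as described below.

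**Figure D1:**
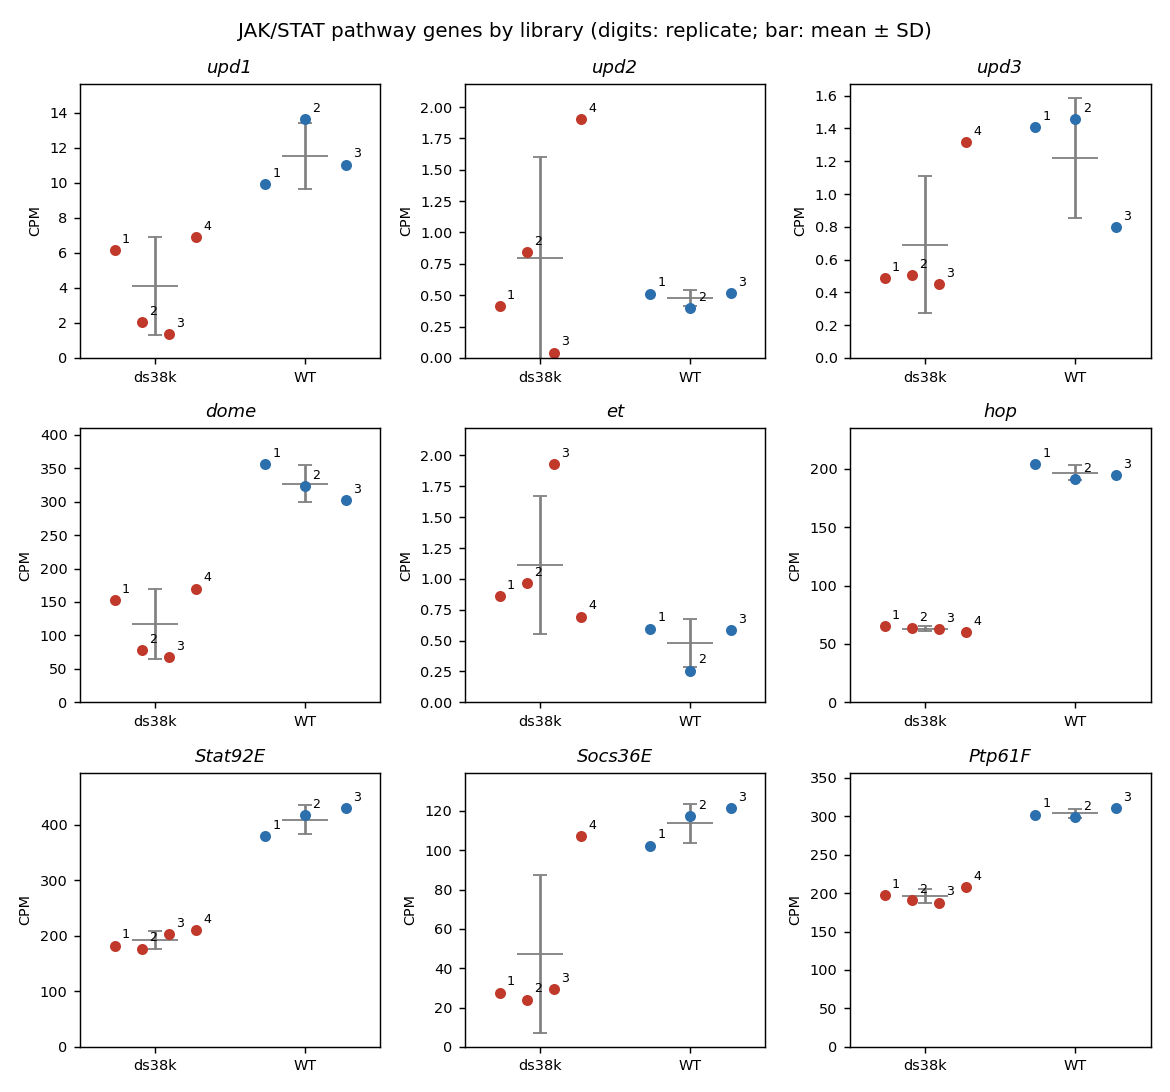
CPM of the 9 pathway genes in each library, ds38k left of WT; points are libraries with their replicate number, and grey bars give the mean ± SD of 4 ds38k and 3 WT libraries. The groups do not overlap for upd1, dome, et, hop, Stat92E and Ptp61F, while Socs36E in ds38k replicate 4 (107 CPM) lies within the WT range.

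The 3 ligand genes lie together on the X chromosome (dm6 coordinates): upd2 at X:18240654-18243284, upd3 at X:18277233-18284596 and upd1 at X:18305354-18309291. Only 1 annotated protein-coding gene, CG15059, lies between upd2 and upd3 and none between upd3 and upd1. All 3 encode secreted cytokines that act through the same receptor. The ligand upd1, known for embryonic segmentation and eye growth, was the most abundant of them in these discs. It had 6.13, 2.06, 1.36 and 6.91 CPM in ds38k replicates 1 to 4 and 9.93, 13.6 and 11.04 CPM in WT replicates 1 to 3. Every mutant library was below every WT library, but replicates 2 and 3 (49 and 33 counts) were far lower than replicates 1 and 4 (164 and 189 counts). The mean was 4.12 ± 2.81 CPM in ds38k (SD, n = 4) and 11.5 ± 1.89 CPM in WT (SD, n = 3). That is -1.48 ± 0.56 on the log2 scale (ds38k over WT, ± SE), with an adjusted p of 0.048 in edgeR.

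The call of upd1 was narrow. It held when ds38k replicate 1 or 4 was left out and was lost when any other library was left out, with values from -1.85 to -1.17 and edgeR adjusted p-values from 0.0166 to 0.132. With the length correction it was -1.27 ± 0.55 (edgeR adjusted p = 0.093), or -1.60 without replicate 4 (edgeR adjusted p = 0.038). Without the correction, the exact two-sided permutation test over 35 splits gave p = 0.0857, where 0.0286 is the smallest value possible.

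The eye determination genes so and eya, listed as markers of eye-antennal discs, were higher in the same mutant libraries as upd1. In ds38k replicates 1 to 4 eya had 8.42, 2.86, 3.04 and 35.9 CPM, and in WT it had 102.6, 88.2 and 82.9 CPM. The 4 genes of that list summed to 4.08 to 45.8 CPM in ds38k and 104 to 131 CPM in WT; 2 of 3 tested were called lower, while ey and toy, the defining eye genes, were below 1 CPM in every library. Their part in the difference of upd1 was not tested. In whole discs, fewer cells that express a gene and less RNA per cell cannot be told apart.

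The other two ligands were close to the detection limit. The cytokine gene upd3, known from blood cells, gut and wounded discs, had 13, 12, 11 and 36 counts in ds38k replicates 1 to 4 and 33, 51 and 23 counts in WT replicates 1 to 3. Scaled to CPM, replicate 4 fell among the WT libraries and the other mutant libraries lay below them. The mean was 0.690 ± 0.418 CPM in ds38k and 1.22 ± 0.368 CPM in WT, or -0.81 ± 0.50 on the log2 scale (adjusted p = 0.19 in edgeR). Without ds38k replicate 4 it was -1.33 ± 0.38 (edgeR adjusted p = 0.0156), a value that the length correction left at -1.34 (edgeR adjusted p = 0.021). The 8 blood cell markers summed to 123 to 162 CPM in ds38k and 182 to 240.0 CPM in WT, with 1 called higher and 2 lower; their part in the upd3 values was not tested. For upd2, the ligand that the adult fat body is known to secrete, the counts were 11, 20, 1 and 52 in ds38k and 12, 14 and 15 in WT. The mutant libraries thus spanned from below to above the WT range. Its difference of 0.75 ± 0.94 on the log2 scale (adjusted p = 0.50 in edgeR) turned to -0.14 ± 0.78 without ds38k replicate 4, so these libraries give no direction for upd2.

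The receptor gene dome (X:19676061-19683518, minus strand), whose product binds all 3 ligands, had 153, 78.0, 67.8 and 169.8 CPM in ds38k replicates 1 to 4 and 356, 323 and 302 CPM in WT replicates 1 to 3. Its mutant libraries split in the same way as those of upd1, with replicates 1 and 4 above replicates 2 and 3 and all below WT. The mean fell to 117 ± 51.7 CPM in ds38k (SD, n = 4), against 327 ± 27.6 CPM in WT (SD, n = 3), or -1.48 ± 0.33 on the log2 scale (adjusted p = 0.0058 in edgeR). Its annotated transcript of 4875 bases falls near the short end of the longest length class, which runs from 4634 to 57886.5 bases. That class had a median log2 fold change of -1.60. With the length correction dome was at -0.28 ± 0.31 (edgeR adjusted p = 0.48), so its corrected fall did not pass the test. Dll, one of the disc markers and a gene of the distal wing, had 103.8, 46.1, 40.4 and 149.5 CPM in the same mutant libraries, and in WT 134, 152 and 184 CPM. Its higher mutant values stood in the same libraries as those of dome, and it was named with its values known. Among the other disc markers nub split in the same way and the rest did not. The sd gene had 355, 335, 372 and 313 CPM in ds38k replicates 1 to 4. In vg, ap and wg, replicate 1 was below replicate 3. The part of these genes in the dome values was not tested.

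Next to dome, with 169 bases between them, lies et (eye transformer, X:19672312-19675891), which encodes a shorter receptor-like protein known to dampen JAK/STAT signalling. It had 23, 23, 47 and 19 counts in ds38k and 14, 9 and 17 counts in WT. Scaled to CPM, the lowest mutant library (0.695 CPM) lay above the highest WT library (0.597 CPM). On the log2 scale et was 1.21 ± 0.53 from WT (adjusted p = 0.077 in edgeR), or 1.39 ± 0.51 without ds38k replicate 4 (edgeR adjusted p = 0.042); over the other processing choices tried on the whole set of libraries the edgeR adjusted p ran from 0.0427 to 0.133. Only 2 of 3 WT libraries reached the filter level of 0.374 CPM that all 4 mutant libraries reached. The gene was thus tested only through the genotype in which it is high, and its p-values and calls give no support to a rise. Zw, a gene on the opposite strand, shares 42 exon bases with et and had a log2 fold change of 1.03; the sources used here do not state whether reads were assigned by strand. The log2 fold changes of et and dome, encoding a dampening and an activating receptor, had opposite signs, a contrast with the same limit. At 9 to 47 counts per library the level of et is imprecise.

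**Figure D2:**
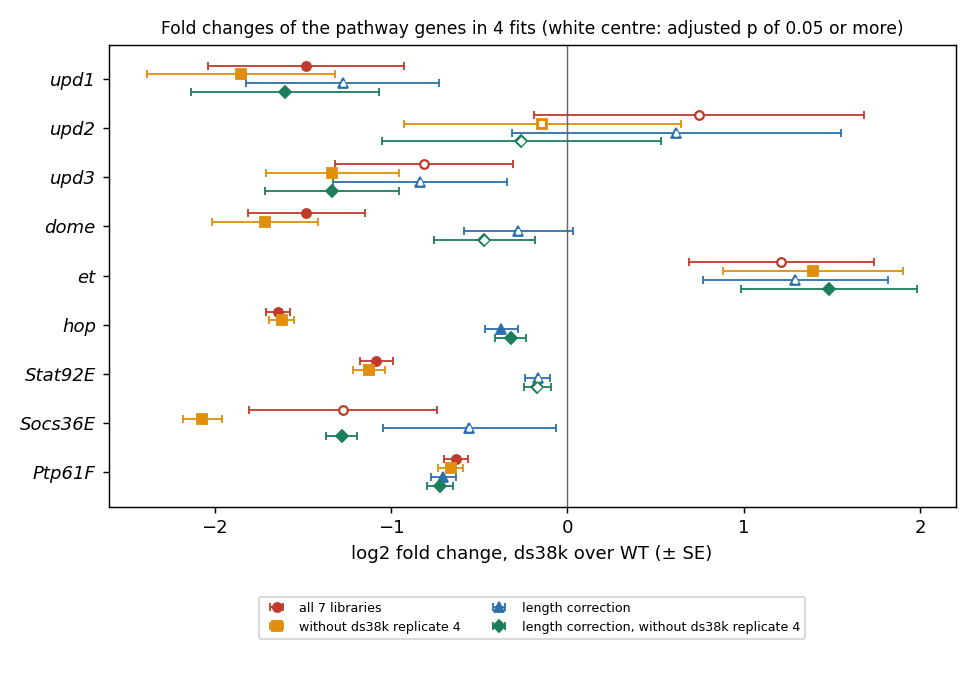
Log2 fold change of each pathway gene, ds38k over WT, with its SE, in 4 fits: all 7 libraries, without ds38k replicate 4, and both with the correction for transcript length; white centres mark an adjusted p of 0.05 or more. The long transcripts dome, hop and Stat92E move towards 0 with the correction (hop from -1.64 to -0.37), Socs36E moves with replicate 4, and Ptp61F stays near -0.7.

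The kinase gene hop (X:11360930-11368098, minus strand) had the smallest p of the 9. It had 65.1, 63.8, 62.9 and 60.2 CPM in ds38k replicates 1 to 4 and 204, 191 and 195 CPM in WT replicates 1 to 3. The mutant libraries lay within a few CPM of each other and far below WT. The mean fell to 63.0 ± 2.05 CPM in ds38k (SD, n = 4), against 197 ± 6.70 CPM in WT (SD, n = 3), a 3.12-fold fall, or -1.64 ± 0.07 on the log2 scale (adjusted p = 3.3e-06 in edgeR). That value is close to the median of -1.60 for its length class, which runs from 4634 to 57886.5 bases. The annotated hop transcript, with 5055 bases, lies near the short end of that class. A smaller fall passed the test after correction, with -0.37 ± 0.09 (edgeR adjusted p = 0.0154). It was -0.52 when the correction used the longest annotated transcript of each gene and -0.32 when ds38k replicate 4 was left out, and the test was passed each time (edgeR adjusted p = 0.0040 and 0.0193).

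Transcripts of Stat92E (3R:20535323-20552311, minus strand), which encodes the only STAT transcription factor of the fly, had 182, 177, 203 and 209.7 CPM in ds38k and 379, 417 and 429 CPM in WT. The groups were well separated, and replicate 4 lay close to the other mutant libraries. The mean was 193 ± 15.9 CPM in ds38k and 409 ± 25.9 CPM in WT, a 2.12-fold fall (log2 fold change -1.08 ± 0.09, edgeR adjusted p = 5.0e-05). Genes of its length class had a median of -0.92. After correction Stat92E was at -0.17 ± 0.07 (edgeR adjusted p = 0.091), and at -0.21 (edgeR adjusted p = 0.0467) when the longest annotated transcript of every gene set the lengths, so the corrected value lay close to the threshold. On log2 CPM without the length correction, the exact permutation p of dome, hop, Stat92E and Ptp61F was 0.0286 each, the smallest possible. Uncorrected CPM ranges of the genotypes did not overlap for 66.4% of all tested genes. With the correction the dome groups overlapped: ds38k replicate 1 (7.78 log2 CPM) lay within the WT range (7.45 to 7.85).

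The inhibitors differed from each other in how the mutant libraries behaved. Socs36E (2L:18138675-18152417, minus strand) encodes a suppressor of cytokine signalling that Stat92E induces, and its transcript is often read as a measure of pathway activity. It had 27.6, 24.1, 29.5 and 107 CPM in ds38k replicates 1 to 4 and 102, 117 and 121 CPM in WT replicates 1 to 3. In replicates 1 to 3 it was far below WT, while replicate 4, the library with the high Hsp70 sum, was inside the WT range; the part of the heat shock genes in this was not tested. Over all libraries the mean was 47.1 ± 40.1 CPM in ds38k and 114 ± 10.0 CPM in WT, and the log2 fold change of -1.27 ± 0.53 missed the threshold (edgeR adjusted p = 0.069; with DESeq2 0.049). Without replicate 4 the mutant mean was 27.1 ± 2.73 CPM (SD, n = 3) and the log2 fold change -2.07 ± 0.11 (edgeR adjusted p = 7.6e-06). Its length class had a median of -0.92 over all libraries. Corrected for length and without replicate 4, Socs36E was at -1.28 ± 0.09 (edgeR adjusted p = 5.8e-05), against -0.56 ± 0.49 with replicate 4 (edgeR adjusted p = 0.38).

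Ptp61F (3L:1342493-1475257, minus strand) encodes a tyrosine phosphatase that acts on Hopscotch and Stat92E. Its levels were 198, 191, 188 and 208 CPM in ds38k and 302, 299 and 310.1 CPM in WT. Replicates of each genotype lay close together and the groups did not overlap. The mean was 196 ± 8.86 CPM in ds38k and 304 ± 5.70 CPM in WT, a 1.55-fold fall (log2 fold change -0.63 ± 0.07, edgeR adjusted p = 1.6e-04), where genes of its length class had a median of 0.09. The correction by the median annotated transcript gave -0.70 ± 0.07 (edgeR adjusted p = 3.5e-04). Its 5 annotated transcripts run from 1796 to 5167 bases, however, and with the longest transcript of every gene as the length the corrected value turned to 0.51 ± 0.07 (edgeR adjusted p = 0.0014). Which transcripts the discs used was not analysed here, so the corrected direction of Ptp61F is not settled by the gene counts. In the fit with the longest transcripts hop and Stat92E were lower and Ptp61F was higher, beside 20.0% and 27.2% of genes called (47.2% in either direction).

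**Figure D3:**
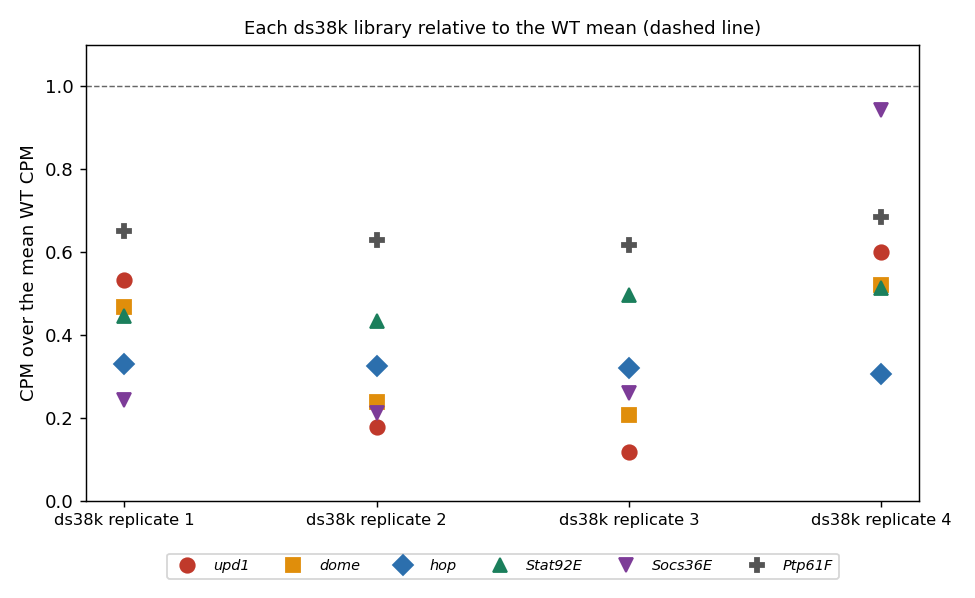
CPM of 6 pathway genes in each ds38k library divided by the mean WT CPM of that gene, with the dashed line at the WT mean. The hop, Stat92E and Ptp61F points are level across the 4 libraries, upd1 and dome are higher in replicates 1 and 4 than in 2 and 3, and Socs36E is near the WT mean in replicate 4 only.

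Levels per kilobase of the median annotated transcript placed the inhibitor Ptp61F and the transcription factor Stat92E above the receptor, the kinase and the ligands. In ds38k, Ptp61F had 92.6 ± 4.19 CPM per kilobase, Stat92E 49.8 ± 4.11, dome 24.0 ± 10.6, Socs36E 13.4 ± 11.5, hop 12.5 ± 0.406, upd1 1.58 ± 1.08, et 0.467 ± 0.233, upd2 0.403 ± 0.406 and upd3 0.311 ± 0.188 CPM per kilobase (SD, n = 4). In WT, Ptp61F had 144 ± 2.70 CPM per kilobase, Stat92E 105 ± 6.69, dome 67.1 ± 5.65, hop 38.9 ± 1.32, Socs36E 32.4 ± 2.86, upd1 4.43 ± 0.725, upd3 0.549 ± 0.166, upd2 0.241 ± 0.0338 and et 0.201 ± 0.0812 CPM per kilobase (SD, n = 3). In ds38k the library ranges of neighbours overlapped from dome downwards, except between hop and upd1, whereas in WT the only neighbours that overlapped were upd2 and et. With the longest transcript as the length Stat92E stood first, with 45.9 CPM per kilobase in ds38k and 97.3 in WT, and Ptp61F had 37.9 in ds38k and 58.8 in WT.

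**Figure D4:**
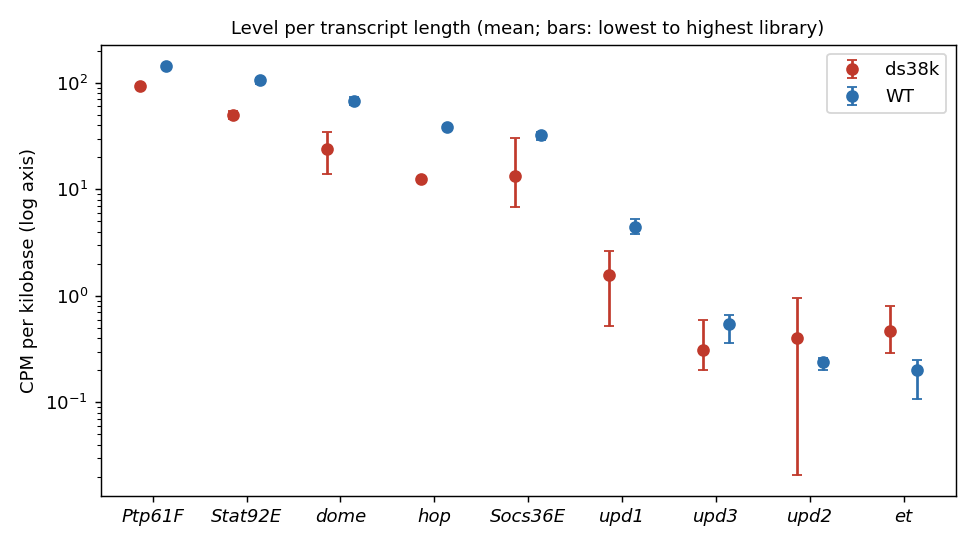
Level of each pathway gene in CPM per kilobase of its median annotated transcript, on a log axis, ds38k left of WT; points are means of 4 ds38k and 3 WT libraries and bars run from the lowest to the highest library. The receptor, kinase, transcription factor and both intracellular inhibitors lie above 10 CPM per kilobase, and the ligands and et below 5.

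Of 17 other genes that act on the pathway, 9 were lower and 5 higher in ds38k, with a median log2 fold change of -0.64, where 30.8% and 34.2% of all tested genes were called. With the length correction 6 were lower and 2 higher, with a median of -0.15, beside 19.1% and 27.6% of all tested genes. The falls with the smallest p were those of mask, a scaffold reported to promote receptor assembly (-2.51 ± 0.10), BRWD3, a bromodomain protein reported to promote signalling (-2.16 ± 0.09), E(bx), a subunit of the NURF chromatin remodeller reported to repress Stat92E targets (-2.11 ± 0.15), and Cnot4 (-0.94 ± 0.07). Corrected, mask was at -0.73, BRWD3 at -0.59 and E(bx) at -0.43, all past the threshold, and Cnot4 at -0.14 (edgeR adjusted p = 0.136). The rises with the smallest p were those of the gene of the heterochromatin protein HP1 (FBgn0003607), which unphosphorylated Stat92E is reported to keep on chromatin (1.13 ± 0.10), Stam, an endosomal sorting protein (0.57 ± 0.07), smt3, the SUMO gene (0.60 ± 0.10), and Cdk4 (0.41 ± 0.08). Corrected, Stam was at 0.95 and the HP1 gene at 0.52, whereas smt3 turned to -0.15 and Cdk4 was at 0.14, neither past the threshold (edgeR adjusted p = 0.42 and 0.198). Corrected and without ds38k replicate 4, smt3 was called lower, at -0.28 (edgeR adjusted p = 0.037).

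Further genes of this list were named after their values were seen. The gene ken, a transcriptional repressor that competes with Stat92E at some targets, had 41.1, 30.6, 31.2 and 96.4 CPM in ds38k and 162, 170.1 and 148.7 CPM in WT, so its replicate 4 was also the highest mutant library. Its log2 fold change was -1.69 ± 0.41, and -1.19 ± 0.38 corrected (edgeR adjusted p = 0.0083 and 0.034). Su(var)2-10, which encodes the PIAS inhibitor of Stat92E, was at -0.86 ± 0.11 and corrected at -0.78 ± 0.10 (edgeR adjusted p = 3.5e-04 and 9.1e-04). The values of apt, a feedback inhibitor known from border cells of the ovary, were -1.22 ± 0.21 and -0.91 ± 0.18 (edgeR adjusted p = 0.0015 and 0.0064). The gene wdp, reported to limit signalling by lowering Domeless, was at -0.64 ± 0.14 and corrected at -0.15 ± 0.12 (edgeR adjusted p = 0.0050 and 0.35). Socs16D, a relative of Socs36E, fell by 1.41 ± 0.29 on the log2 scale before correction and had a corrected value of -0.20 (edgeR adjusted p = 0.55), and Socs44A had values of 0.07 and -0.11 (edgeR adjusted p = 0.58 and 0.41).

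**Figure D5:**
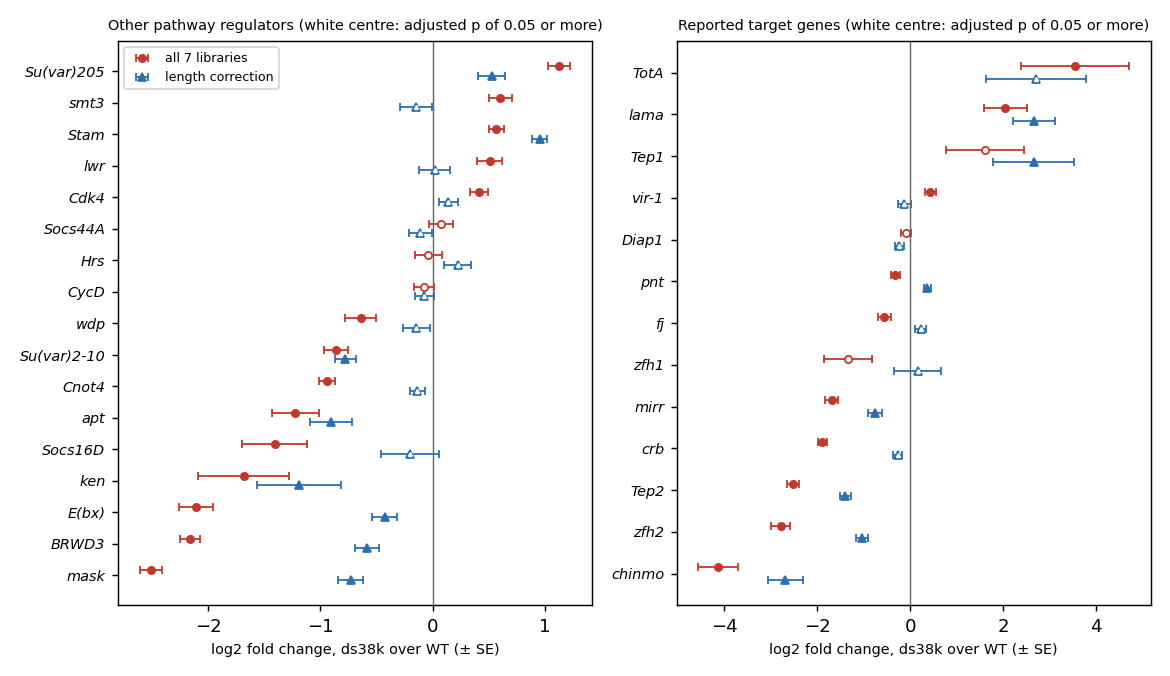
Log2 fold change, ds38k over WT, with its SE, of the tested genes among other pathway regulators (left) and reported Stat92E target genes (right), with all 7 libraries and with the length correction; white centres mark an adjusted p of 0.05 or more. In the regulator panel 9 genes are lower and 5 higher, or 6 and 2 with the correction, and in the target panel 7 are lower and 3 higher, or 4 and 3.

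Of 18 genes reported as targets of Stat92E in one fly tissue or another, 13 were tested; 7 were lower and 3 higher, with a median log2 fold change of -0.55, where 65.0% of all tested genes were called. With the length correction 4 were lower and 3 higher, with a median of -0.12, beside 46.7% of all tested genes. The genes called higher were not the same ones: they were lama, vir-1 and TotA without the correction and lama, Tep1 and pnt with it. Among these pnt, an ETS transcription factor gene, was called in opposite directions, at -0.31 ± 0.09 without and 0.37 ± 0.07 with the correction (edgeR adjusted p = 0.0155 and 0.0059). Tep1, a relative of Tep2, was at 1.62 ± 0.83 without and 2.66 ± 0.88 with it (edgeR adjusted p = 0.125 and 0.041). Its counts were 36, 33, 94 and 8 in ds38k replicates 1 to 4 and 20, 10 and 16 in WT. The filter level of 0.374 CPM was reached by 3 of 4 mutant and 2 of 3 WT libraries. Tep1 was thus tested only through the genotype in which it is high, and its place in the corrected count of rises gives no support. Among the falls were crb, an apical polarity gene (-1.89 ± 0.09; corrected -0.27, edgeR adjusted p = 0.072), Tep2, a thioester protein of humoral immunity (-2.52 ± 0.13; corrected -1.40), zfh2, a transcription factor of the hinge (-2.78 ± 0.20; corrected -1.03), and mirr, an Iroquois gene of the notum (-1.69 ± 0.14; corrected -0.76). The largest fall of the list was that of chinmo, picked after its values were seen. It was at -4.13 ± 0.43, and corrected at -2.69 ± 0.37 (edgeR adjusted p = 1.4e-04 and 0.0014). Its levels were 9.95, 8.36, 11.5 and 26.6 CPM in ds38k and 209, 228 and 304 CPM in WT. Tep2 was uniform within genotypes, with 34.7, 36.6, 43.3 and 47.8 CPM in ds38k and 253, 229.7 and 219 CPM in WT. Its value in replicate 4 was close to those of the other mutant libraries, unlike that of Socs36E. Of the other two genes listed as markers of the peripodial cells and hinge beside zfh2, Ubx had a log2 fold change of -0.61 and Doc1 one of 0.04 (edgeR adjusted p = 0.167 and 0.798).

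The rises among the targets without the correction were those of lama, lamina ancestor, a gene known from neuronal and glial precursors (2.05 ± 0.46; corrected 2.67 ± 0.45), vir-1, a marker of the antiviral response (0.44 ± 0.13; corrected -0.12, edgeR adjusted p = 0.53), and TotA, a stress-induced humoral factor. TotA had 4.71, 2.65, 1.44 and 0.0731 CPM in ds38k replicates 1 to 4 and 0.171, 0.143 and 0.242 CPM in WT. It was above WT in replicates 1 to 3 and below WT in replicate 4 (log2 fold change 3.55 ± 1.16, edgeR adjusted p = 0.029; 3.96 and 6.0e-04 without replicate 4). With the length correction TotA was at 2.72 ± 1.08 and lost its call (edgeR adjusted p = 0.074). No WT library and 3 of 4 mutant libraries reached the filter level of 0.374 CPM, so TotA was tested only through the genotype in which it is high, and its place in the count of rises gives no support. All 5 fat body markers were called higher in ds38k, and the library with the low TotA value was also the mutant library with the smallest sum of them, 54.0 CPM against 859 to 2897 CPM in the others; their part in the TotA values was not tested. When a WT library was left out, TotA lost its call, at 3.38 to 3.78 (edgeR adjusted p = 0.078 to 0.099), and it was not tested when ds38k replicate 1, 2 or 3 was left out. The call of vir-1 was lost without WT replicate 1 or 2, at 0.36 and 0.37 (edgeR adjusted p = 0.056 and 0.077), while that of lama held without any 1 library. TotC, TotX and eve had no counts in any library, and TotM and slbo too few to be tested. The zfh1 gene, picked after its values were seen, had 10.8, 7.61, 10.5 and 34.8 CPM in ds38k and 41.6, 31.7 and 47.5 CPM in WT, another gene whose replicate 4 was within the WT range.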

How the data were processed

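The authors deposited an unscaled table of expected counts per gene; the submitters' processing notes name FastQC 0.10, Trimmomatic 0.33, Salmon 1.80 (version as written), edgeR and the dm6 build. The sources used here give neither annotation release nor strand setting. Counts were rounded to whole numbers. R 4.3.3, edgeR 4.0.16, DESeq2 1.42.0, Python 3.11.15 and matplotlib 3.10.9 were used. Genes passing filterByExpr (minimum count 10, genotype as group) were scaled by TMM and tested with edgeR's quasi-likelihood F-test over all 7 libraries without covariates, with a Benjamini-Hochberg threshold of 0.05. Each SE is approximate, the size of the log2 change over the root of F. Permutation tests used log2 CPM with a prior count of 2, without the length correction. For the length correction, a natural spline (5 degrees of freedom) of log2 median transcript length (BDGP6.54, dm6 coordinates) was fitted to the deviations from gene means in each library and taken as an offset; it also removes real changes that run with length. Of 17208 identifiers 17083 were in that annotation. The procedure was tested on simulated data.

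The pathway genes and lists were chosen with earlier results of these data known. Named were the 9 genes, ds, up to 4 called genes with the smallest p in each direction of each list, and the genes closest to Stat92E by correlation; any other gene named was picked with its values known. All replicate pairs differed by more than sampling noise. PCR duplicates could not be recognised.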

Additional observations from a re-analysis of the deposited data

Results flagged for a closer look

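In 25 genes examined, the ds38k library farthest from the others was singled out by Dixon's criterion in 3, each time replicate 4 as the highest. Chance alone gives about 5% of groups, but the genes share the same libraries and are not independent. Neither ken nor zfh1, whose highest mutant library was also replicate 4, was among the 25. Socs36E stood at 107 CPM in that library, against 24.1 to 29.5 CPM in the other mutant libraries and 102 to 121 CPM in WT. The value of upd3 was 1.32 CPM there, against 0.452 to 0.504 CPM in the other mutant libraries and 0.796 to 1.46 CPM in WT. For lama it was 43.4 CPM, against 14.5 to 17.7 CPM in the other mutant libraries and 4.39 to 7.62 CPM in WT. The same library had the high Hsp70 sum and the low fat body sum given above; their part in these values was not tested.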

How the results depend on the processing

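Without the length correction, the calls of dome, hop, Stat92E and Ptp61F held whichever library was left out. With it dome and Stat92E were not called (edgeR adjusted p = 0.48 and 0.091). The same held when ds38k replicate 4 was left out as well (edgeR adjusted p = 0.199 and 0.102). Over leave-one-out fits the number of pathway genes called higher was 0 to 1 and that of reported targets called higher 1 to 4. Beside these, the number of all genes called higher ran from 2730 of 9586 to 3341 of 9214. The 4 targets, in the fit without ds38k replicate 4, included TotA and Tep1, whose calls give no support as described above. Compared with 0 higher in the main analysis, 1 pathway gene was higher with upper-quartile factors, with the replicate block, with the block and length correction together, with the length correction without ds38k replicate 4 and with the longest transcripts. It was et, except with the longest transcripts, where it was Ptp61F. As et was tested only through ds38k, its calls give no support. Deviations of same-numbered ds38k and WT libraries correlated at 0.137, 0.003 and 0.098, so the numbers were not treated as pairs; with the replicate block 7 pathway genes were lower, beside 3194 of 9294 genes, and with block and length correction 6, beside 2293 of 9224, dome among them at -0.55 (edgeR adjusted p = 0.038). In that fit ds38k replicate 4 has no partner and drops out. The length correction left 2 pathway genes lower (also 2 with the longest transcripts), 2 regulators higher (also 2 with the block added), 4 targets lower and 1760 of all genes lower. Signs turned for upd2 (-0.44 with the block, -0.56 with block and length correction, -0.14 without ds38k replicate 4, a leave-one-out range of -0.14 to 1.16, and -0.26 with length correction as well), smt3 (-0.15 with the length correction, -0.27 with the block too, -0.28 without replicate 4, -0.11 with the longest transcripts), vir-1 (-0.12, -0.15 and -0.17 in the first 3 of these), Ptp61F (0.51 with the longest transcripts) and pnt (0.37 with the length correction). Signs also turned with the length correction for fj (-0.55 to 0.23), zfh1 (-1.34 to 0.16), Hrs (-0.04 to 0.22) and Socs44A (0.07 to -0.11). Of these fj was called lower without the correction (edgeR adjusted p = 0.0095) and not called with it (edgeR adjusted p = 0.137). The gene smt3 was called lower with block and length correction (edgeR adjusted p = 0.032). It was also called lower with the length correction without replicate 4 (edgeR adjusted p = 0.037). The length correction without replicate 4 and the one by longest transcripts were chosen after seeing the data. Scaling by the upper quartile called 3990 genes higher and 2259 lower, with a median of 0.33; Ptp61F was then at -0.37 and upd1 at -1.24 (edgeR adjusted p = 0.072). Below about 50 counts per library, as in upd2, upd3 and et, the depth limits any statement on a change. The counts of upd1 in ds38k replicates 2 and 3, 49 and 33, were below this level too.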

Other observations

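Among 9293 other genes, the log2 CPM of Daxx, l(2)gl and sfl was most like that of Stat92E over 7 libraries (Pearson's r of 0.9998, 0.9995 and 0.9994), a measure set mainly by the gap between the genotypes. With the genotype means removed, Daxx, CG2975 and CG7781 were closest (0.9985, 0.9936 and 0.9907). All of these are the highest of 9293 correlations over only 7 libraries, which differ in length profile and composition. They are descriptions, and a link of these genes to Stat92E was not tested.

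The X chromosome carries 6 of the 9 pathway genes; 1556 tested genes of the X had a median log2 fold change of -0.14, or -0.0015 with the length correction. The hop gene lies 2205 bases from dsh, picked after its values were seen, which had 5.27, 5.002, 5.67 and 3.25 CPM in ds38k and 107.9, 93.5 and 85.6 CPM in WT. The protein-coding gene Pa1 is annotated between hop and dsh. The row with that symbol, whose identifier is not in the annotation used, was not called, at 0.48 ± 0.35 (edgeR adjusted p = 0.26).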
